A study of Drosophila melanogaster with 6 samples.

Results

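Jarid2 binding was described from the peak lists of 2 ChIP-seq libraries (chromatin immunoprecipitation followed by sequencing), replicates A and B. The libraries were made from Drosophila melanogaster embryos of 12 to 24 h that expressed Jarid2 with a BioTAP tag, an affinity tag taken first by IgG beads and then by streptavidin beads. List A held 1916 peaks and list B 1055. Peaks of the 2 lists that overlapped by 1 bp or more were merged, which gave 1995 regions, and the 900 regions with a peak of both lists are described here. They are drawn from 2971 of the 12061 peaks in the 4 lists of the series, the other lists belonging to a second tagged protein, Pcl. One input library was made for Jarid2 and has no peak list. Whether A and B came from separate embryo collections, and which promoter drove the tagged protein, is not given in the sources used here, so the spread between the lists may be technical. No untagged control was analysed here, and a peak list holds no measurement that could check the tag or the stage.

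Jarid2 is a member of the Jumonji family that has lost demethylase activity and serves as an accessory subunit of Polycomb repressive complex 2 (PRC2). That complex methylates histone H3 at genes kept silent in development, and its accessory subunits form alternative versions of it. In flies Jarid2 belongs to the version that also holds Jing, and Pcl to another version. Regions are given by position in genome build dm3, 1-based. They carry no gene names, because the gene table used here is for Release 6.

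Most regions were simple, with 1 peak in each list. Of the 900 regions, 848 (94.2%) held 1 A peak and 1 B peak, 36 held more than 1 A peak and 23 more than 1 B peak. The 900 regions took in 950 A peaks, or 49.6% of list A (Wilson 95% interval 47.3 to 51.8%), and 926 B peaks, or 87.8% of list B (85.7 to 89.6%). These and all later intervals cover counting error only. The limit of 1 bp touched few regions. Among 976 overlapping pairs of peaks 12 overlapped by less than 50 bp, the smallest overlap was 1 bp, and 15 pairs that did not overlap lay within 50 bp of each other.

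Jarid2 regions were narrow. The median width was 326 bp, the interquartile range 270 to 447 bp and the full range 163 to 5033 bp. The narrowest single peaks were 140 bp in list A, a width that 76 peaks had, and 154 bp in list B, shared by 7 peaks. A region is the union of its peaks, so its width exceeds theirs. The stretch that both lists covered had a median of 230 bp and made up a median of 73.8% of the region. Regions wider than 1000 bp numbered 31, or 3.44%. The widest lay on 2R from 8879348 to 8884380 (5033 bp), on the mitochondrial sequence from 1290 to 5824 (4535 bp) and on 2R from 8926505 to 8930741 (4237 bp).

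The lists placed the centres of these regions close together. The summit of a peak is the base where the authors' caller found the most tags (aligned reads extended to the length of a fragment), and for each region the summits of the strongest A and the strongest B peak were compared. Their distance had a median of 21 bp, with an interquartile range of 10 to 47 bp, against a median width of 326 bp. Summits lay within 50 bp of each other in 76.6% of regions (73.7 to 79.2%) and within 100 bp in 91.1% (89.1 to 92.8%). Part of this closeness is set by the rule for a region, which needs overlapping peaks. The peaks were narrow, with median widths of 238 bp in A and 250 bp in B, and those without a counterpart are not counted. In 10 regions both lists placed the summit on the same base. The A summit lay at the higher coordinate in 415 regions and at the lower in 475, with a median difference (A minus B) of -2 bp.

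**Figure D1:**
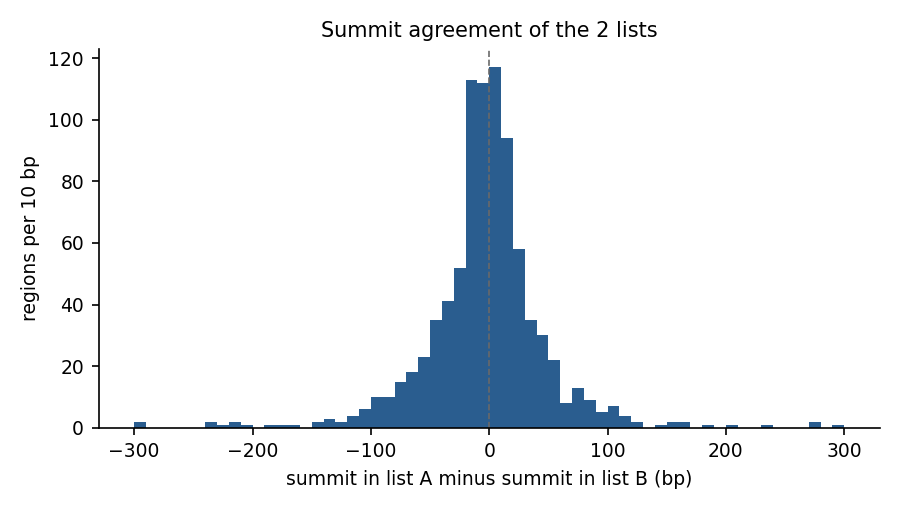
Distance between the summits of the 2 lists in each Jarid2 region (x axis, A minus B, in bp) against the number of regions in each 10 bp class (y axis). The distribution is narrow and centred near 0, with a median of -2 bp; 28 regions with summits over 300 bp apart lie outside the axis.

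Summit agreement differed between simple and compound regions. Where each list had 1 peak, 94.0% of regions had summits within 100 bp (92.2 to 95.4%) and 1 of 848 had summits over 500 bp apart. Where a list had more than 1 peak, 44.2% of 52 regions did (31.6 to 57.7%), with a median distance of 196 bp. In such regions the strongest peak of list A and that of list B could be different peaks. The largest distances, 2361, 1688 and 1201 bp, all belonged to regions on 2R between 8919713 and 8926397 or at 8879348 to 8884380, each with 3 A peaks.

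The strength of a peak in the lists is a fold, the linear ratio of tags at the summit to the background expected there, as the authors' caller gave it. Over the 900 regions the median fold was 3.45 in A (interquartile range 2.88 to 4.14, full range 1.71 to 9.60) and 3.03 in B (2.52 to 3.72, full range 1.70 to 7.41). A fold over 5 was reached by 86 regions in A, 48 in B and 24 in both. The fold was higher in A than in B in 576 regions (64.0%), with a median ratio of 1.11, and 27 regions differed more than 2-fold between the lists.

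The order of the regions by fold was only loosely common to the lists. Spearman's rho between fold in A and fold in B was 0.32 and Pearson's r of log2 fold 0.37 over 900 regions. The regions are positions of the same 2 libraries and not replicates, so no p is given. Among the 100 strongest regions of each list 39 were common to both, which is 39% of each. Wider regions had higher folds in A (rho 0.41 with width) and less so in B (0.17).

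A second measure of strength, tags at the summit, was recovered from the fold and the p of each peak under the arithmetic of MACS2, the caller named in the submitters' processing notes. For list A only whole numbers of tags were tried, and in all 1916 peaks the best one matched −log10 p within a relative error of 1.1e-05. The 1055 B peaks matched whole numbers after the tags had been multiplied by a common factor of 0.250 (each within 0.00018 of a whole multiple). At the 900 regions the median summit held 53 tags in A (interquartile range 39 to 70.2, full range 19 to 136) and 159 in B (124 to 192, full range 67 to 277). A count of 53 has an exact Poisson 95% interval of 39.7 to 69.3, and one of 159 an interval of 135 to 186.

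These tags show how differently the lists were scaled. In list A the background had been scaled by 0.400 to the depth of the immunoprecipitate, while in list B the immunoprecipitate had been scaled down by 0.250 to the depth of the background. The immunoprecipitate thus held 0.400 times the tags of its background in A and 4.0 times in B. From the genome-wide background levels of 6.23 tags in A and 4.95 in B, and with the narrowest peak taken as fragment length, immunoprecipitate B was 2.89 times as deep as A and the background of A 3.46 times as deep as that of B. Of the 235 backgrounds of B that were neither whole nor at the genome-wide level, 189 were multiples of 154 divided by 1000, within 0.002. The labels list 1 Jarid2 input, and the backgrounds of the lists were not of equal size. The background level at a median region, before scaling, was 37 tags in A and 12 in B. Read as plain counts, these have exact Poisson intervals of 26.1 to 51.0 and 6.20 to 21.0. They need not be plain counts, because the caller keeps the highest of several levels. The level was a whole number of tags in only 71.5% of A peaks and 73.0% of B peaks. The intervals are thus no measure of the precision of a fold, and which list has the less precise folds was not tested.

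Counted in tags, the libraries were far closer to each other than in folds. The ratio of B tags to A tags had a median of 2.88 over the 900 regions, and in 882 regions (98%) it lay within 1.5-fold of the depth ratio of 2.89. The depth ratio has fragment length divided out and summit tags do not, so these ratios are not like measures. Divided by the genome-wide mean of its own library, which was 6.23 tags in A and 19.8 in B before scaling, the median summit reached 8.50 in A (interquartile range 6.26 to 11.3) and 8.03 in B (6.25 to 9.69). Spearman's rho between the lists was 0.92 and Pearson's r of log2 values 0.91 over the 900 regions. Of the 99 regions in the top 100 of each list by this measure (ties at the edge were left out), 77 were common to both. Summit tags are not corrected for the background at a region, which itself had a rho of 0.73 between the lists. The part of background in the agreement of tags was not tested. The upper end was lower in B, with a maximum of 14.0 times the mean against 21.8 in A. The number of regions at 10 or more times the mean in both lists was 184. Where a caller keeps 1 read for each start base and strand, a summit cannot exceed 2 fragment lengths, which is 280 tags in A and 308 in B. The highest summit of any peak held 276 tags in A and 277 in B, and of the 900 regions 136 in A, so B came closer to that limit at these regions. Whether repeated reads were removed is not given in the sources used here, and the part of such a limit in the lower maximum of B was not tested.

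**Figure D2:**
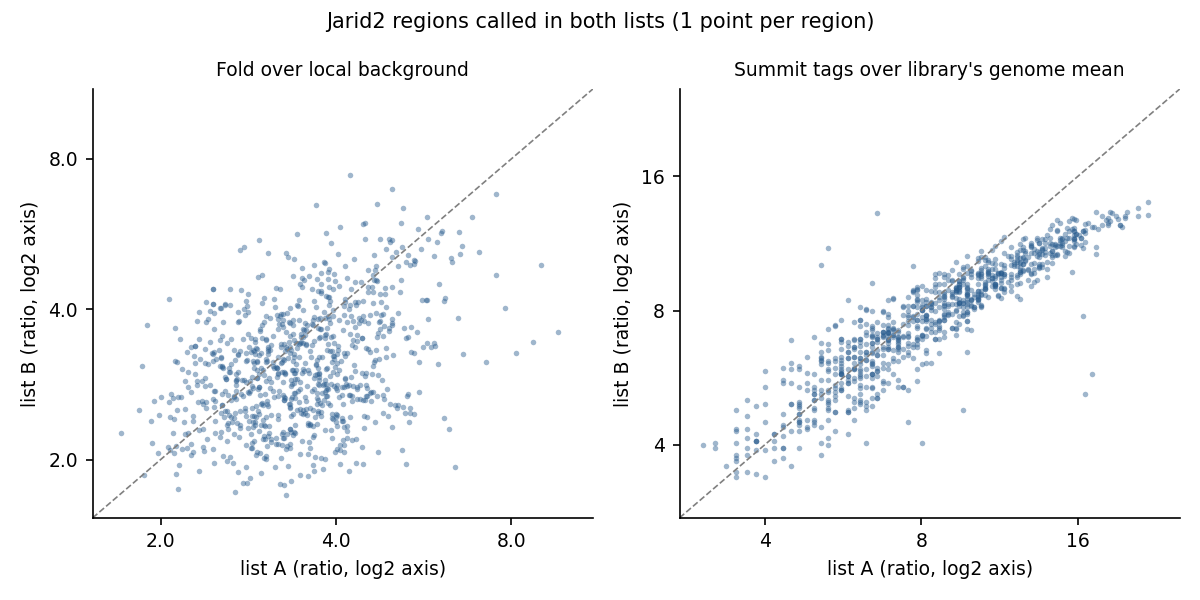
Strength of the 900 Jarid2 regions in list A (x axes) and list B (y axes), as the deposited fold over local background (left) and as summit tags divided by the mean of the library (right), all axes on a log2 scale and the dashed line marking equal values. The folds scatter widely (rho 0.32), while the tags follow 1 curve (rho 0.92) that bends below the line at the upper end, where list B reaches 14.0 and list A 21.8. The tags, unlike the folds, are not corrected for local background.

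Jarid2 regions lay where the background itself was raised. The caller takes as local background the highest of the genome-wide level and the levels around the peak, so it cannot fall below the genome-wide level. At the median region it was 2.37 times the genome-wide level in A (interquartile range 1.75 to 3.08) and 2.42 times in B (1.67 to 3.23). It exceeded 2 times that level in both lists in 503 regions (55.9%), and 91 regions were under 1.5 times it in both. Local background of A and B had a rho of 0.73 across the 900 regions. The points can share this value in part, since which background library each list used is not given.

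Summit tags were higher where the background was higher. A peak over a higher background needs more tags to pass the caller's limit, so the way regions were called fixes part of this, and it is given as a description. For this the 900 regions were ranked by background and cut into 4 groups of 224 to 226. In the group with the lowest background, 1.41 times the genome-wide level in both lists, the summit reached 5.46 times the library mean in A and 5.40 in B. In the group with the highest background, 3.47 and 3.84 times that level, it reached 12.4 and 10.3 times the mean. The fold moved the other way in B, from a median of 3.53 in the lowest group to 2.47 in the highest, and little in A, from 3.55 to 3.36. Part of that is arithmetic, because the background divides the tags in a fold. Summits lay closer together in the highest group (median 16 bp) than in the lowest (32 bp), and the share of regions with a neighbour within 5 kb was 12.0% against 38.1%.

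Over all peaks of a list, the median local background was 2.01 and 2.22 times the genome-wide level in the Jarid2 lists, a mean of 2.12 ± 0.148 (SD, n = 2). In the Pcl lists, recovered in the same way, it was 1.12 and 1.10 times, a mean of 1.11 ± 0.0123 (SD, n = 2). The groups did not overlap and their means differed by 1.01. With 2 lists a group an exact permutation test, two-sided, gave p = 0.333, the smallest it can give here, so it cannot decide. The labels list a single input library for each protein, so the lists of a protein may share their background. The SDs and the test may therefore not rest on independent measures of it. The Jarid2 and Pcl lists differ in the sequencing lane given in the names of their peaks, so protein and lane cannot be told apart.

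The strongest regions by fold were spread over several sequences. The 10 whose fold ranked highest on average over both lists had folds of 5.73 to 7.54 in A and 5.15 to 6.80 in B, summit tags of 61 to 120 in A and 161 to 262 in B, and widths of 358 to 2946 bp. In 9 of them each list had 1 peak, and 5 had another region within 5 kb, beside 22.6% of all regions and 21.3% of the strongest 300. The first lay on 2R from 8842720 to 8845665, with a fold of 7.54 in A and 6.80 in B. Its summits, at 8843732 and 8843726, held 97 tags in A and 241 in B. The second lay on 2L from 10506471 to 10506828 with 81 and 220 summit tags, and had no neighbour within 5 kb. The third, also on 2L, from 8162939 to 8163474, held 120 tags in A and 247 in B, 19.3 and 12.5 times the library means.

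The other regions among these 10 were on 3L (at 7797574, 14543497 and 20533134, giving the first base of each), on 2R (at 8873343, 13152865 and 15051580) and on the heterochromatin sequence 3LHet (at 206493). None of the 10 was on X. On X the strongest region ran from 3730041 to 3730348, with folds of 5.54 in A and 5.78 in B and both summits on base 3730198. Its local background was close to the genome-wide level, at 1.03 times in A and 1.21 times in B. On 3R it ran from 26291629 to 26292149, with folds of 6.33 and 4.98. On chromosome 4 it ran from 1117819 to 1118777, with folds of 5.12 and 4.87 and 36 and 113 tags.

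Regions were also cut into 3 groups of 300 by that mean rank, and compared in other measures. These are not all independent of the ranking, since width had a rho of 0.41 with fold in A and 0.17 in B. Median width was 384 bp in the strongest group, 318 bp in the middle one and 288 bp in the weakest. Summits lay within 100 bp in 94.3%, 89.7% and 89.3% of regions, in the same order. The share on X was 15.3%, 13.3% and 8.0%. The share with a neighbour within 5 kb showed no order, at 21.3%, 25.3% and 21.0%.

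Most Jarid2 regions stood alone. Between neighbouring regions of the 6 main arms (2L, 2R, 3L, 3R, 4 and X) the median gap was 80.0 kb, with an interquartile range of 25.5 to 182 kb. Of the 900 regions 203 (22.6%, 19.9 to 25.4%) had another within 5 kb, 16.2% within 1 kb and 36.6% within 20 kb. These shares rest on the rule for a region. The share within 5 kb was 7.61% when peaks were merged across gaps of up to 1 kb, 9.05% at a q of 1e-05 or less, 45.3% for the peaks of list A alone and 29.4% for those of list B. Gaps of 30 to 100 kb numbered 260 and those of 100 to 300 kb 284. Shorter gaps were fewer, with 105 of 10 to 30 kb, 40 of 3 to 10 kb and 25 of 1 to 3 kb. Below 1 kb there were 38 of 0.3 to 1 kb, 28 of 100 to 300 bp and 16 under 100 bp.

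**Figure D3:**
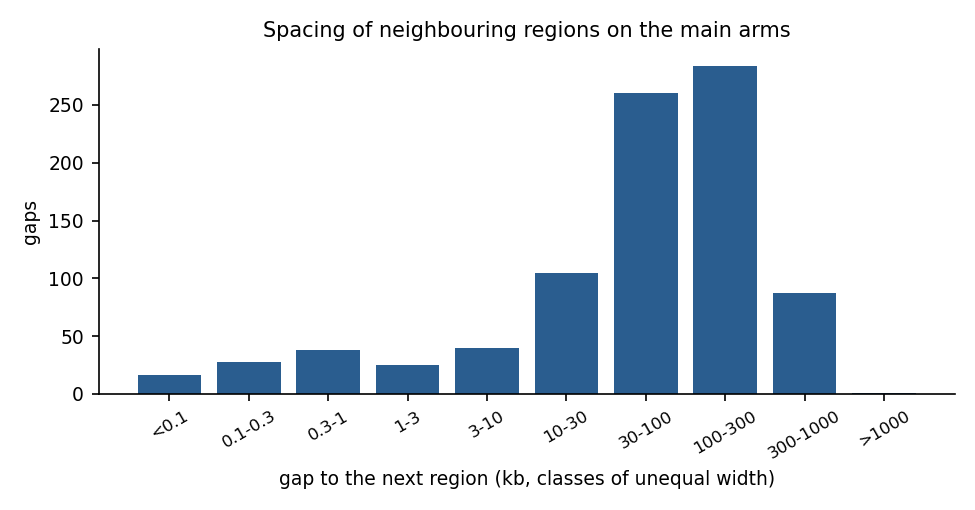
Number of gaps (y axis) by the length of the gap between neighbouring Jarid2 regions on the main arms (x axis, kb, classes of about equal width on a log scale except the first and last), 884 gaps in all. Most gaps are of 30 to 300 kb, with 25 gaps of 1 to 3 kb and 38 of 0.3 to 1 kb.

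Between 2 neighbouring regions of the main arms the longest gap was on X, 1370 kb from 19781750 to 21151959. The longest such gap was 964 kb on 2R, 875 kb on 3R, 699 kb on 3L, 542 kb on 2L and 195 kb on chromosome 4. Stretches at the ends of a sequence are not among these gaps, and some were longer. The first region of 2R began at base 1670096, and the last of 3L ended at base 22721440 of a sequence counted to 23731.8 kb.

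Regions with gaps of at most 5 kb were chained into runs. There were 77 runs of 2 or more, which held 203 regions, and 61 of these runs were pairs. Runs of 4 or more numbered 8, the 7 regions of the mitochondrial sequence among them, and held 57 regions. Of these runs 3 lay within 1 window, on 2R from 8.8 to 9.0 Mb. The longest run held 10 regions on 2R from 8892324 to 8911821, a span of 19.5 kb, with 12 A and 12 B peaks. The next held 9 regions on 2R from 8866918 to 8886549 over 19.6 kb, of which 16.2 kb was covered by regions. The third, 8 regions on 2R from 8917776 to 8930741, contained the highest A fold of any region, 9.60, beside a fold of 3.60 in B.

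Runs of 7 or more were also found on 3L and 2L. On 3L 8 regions from 17981399 to 17992708 covered 3.42 kb of 11.3 kb, with highest folds of 4.65 in A and 5.14 in B. On 2L 7 regions stood between 14489940 and 14502100.

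The window on 2R held more of the wide and compound regions than its share of all regions, though most lay elsewhere. It held 30 of the 900 regions (3.33%) but 37.2 of the 381 kb covered by all regions (9.78%). Of the 31 regions over 1000 bp wide 11 lay in it, and so did 5 of the 13 with summits over 500 bp apart and 11 of the 52 with more than 1 peak of a list. The median width there was 634 bp. Folds were above those of all regions, with medians of 3.80 in A and 3.33 in B, but summit tags were below, at 6.02 and 5.93 times the library mean. Without this window 19.9% of regions had a neighbour within 5 kb, and the median gap was 82.4 kb.

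Grouped regions were wider than single ones. The 203 regions with a neighbour within 5 kb had a median width of 411 bp and a median summit distance of 35 bp, against 317 bp and 19 bp for the 697 others. All 30 regions of the dense 2R window (median width 634 bp) and all 7 mitochondrial regions (777 bp) are among the 203. The comparison was not taken without them. Median folds differed little, at 3.43 in A and 3.06 in B for grouped regions against 3.47 and 3.00 for single ones.

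Density differed between sequences, taken over the length from the first base to the highest peak end of any list. The main arms held 890 regions, or 7.52 per Mb (exact Poisson 95% interval 7.03 to 8.03). On 2L the density was 8.96 per Mb (7.77 to 10.3), on 2R 8.89 (7.66 to 10.3) and on 3L 8.68 (7.54 to 9.95). On 3R it was 6.27 per Mb (5.38 to 7.27), with an interval below those of the other large autosomal arms. X had 5.04 regions per Mb (4.14 to 6.07), below the 8.09 of the 4 large autosomal arms together (7.53 to 8.68). Neighbouring regions are not independent, so these intervals are too narrow as a measure of how sequences differ.

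Both lists had fewer peaks per Mb on X and 3R than on the other large arms. List A had 9.89 peaks per Mb on X, 13.2 on 3R and 18.2 to 19.7 on the other large autosomal arms, and list B had 6.27, 7.06 and 9.94 to 10.5. Regions on X were also lower in tags, with a median of 7.30 times the library mean in A and 7.14 in B, against 8.26 to 9.47 and 7.77 to 8.63 on the large autosomal arms. Their local background was lower as well, 1.99 and 2.02 times the genome-wide level against 2.31 to 2.63 and 2.27 to 2.83. Embryos of mixed sex carry fewer copies of X than of an autosome, and the part of copy number in the lower density was not tested. Folds on X were not lower, with medians of 3.58 in A and 3.29 in B. Of the X regions 10.0% had a neighbour within 5 kb, against 24.0% on the large autosomal arms.

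**Figure D4:**
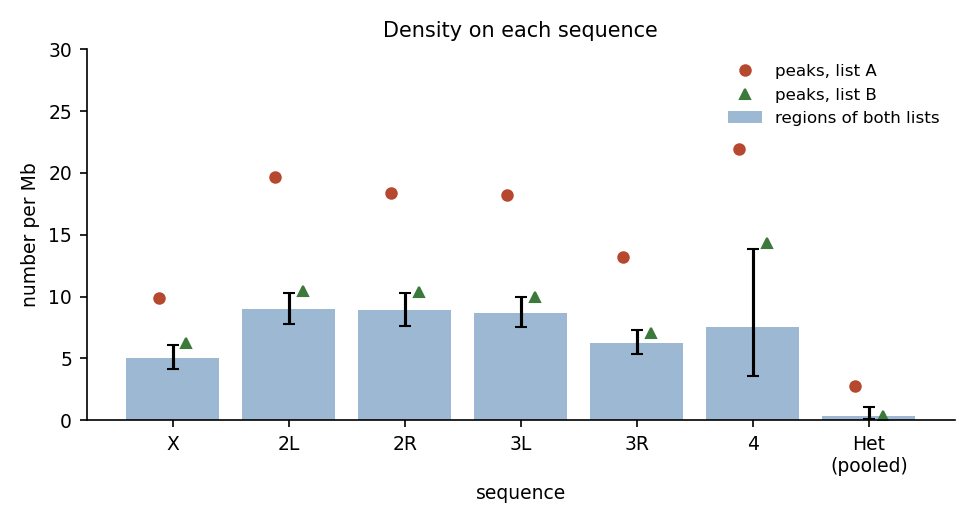
Jarid2 regions per Mb on each sequence (bars, with exact Poisson 95% intervals) and peaks per Mb of list A (circles) and list B (triangles), the heterochromatin sequences pooled. X and 3R are lowest among the large arms in both lists, and the heterochromatin sequences hold 0.366 regions per Mb.

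Chromosome 4, which is small and largely heterochromatic, held 10 regions, or 7.55 per Mb (3.62 to 13.9), and none had a neighbour within 5 kb. It had the most peaks per Mb of the main arms in each list, 21.9 in A and 14.4 in B. These values rest on 29 A and 19 B peaks and no interval was taken for them, so the ranking is uncertain. Of the 29 A peaks on chromosome 4, 34.5% were in regions of both lists. The 5 heterochromatin sequences together spanned 8.20 Mb and held 3 regions, or 0.366 per Mb (0.0755 to 1.07). List A had 23 peaks there and list B 3. The 8 A peaks on XHet had no B counterpart. The region on 3LHet, from 206493 to 207932, was the exception in strength, with folds of 5.96 in A and 5.44 in B and 61 and 192 tags. The regions on 2RHet and 3RHet had folds of 1.71 and 3.04 in A and 2.26 and 2.62 in B.

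Along the large arms density was lowest next to the centromere. Each arm was cut into 10 segments of equal length from the tip inward. Pooled over the 5 arms, the segment nearest the centromere held 3.42 regions per Mb (2.44 to 4.65), while the other segments held between 6.66 and 9.40. The low value appeared in both lists, with 7.18 A peaks and 4.27 B peaks per Mb in that segment against lowest values of 13.4 and 7.60 elsewhere. The arms were not alike. In the segment nearest the centromere X had 1.37 regions per Mb, 2R 1.89, 3L 2.11 and 3R 3.23, whereas 2L had 8.47. On X, 2L and 3L this segment ends at the highest peak end, so any stretch without peaks beyond it is left out. On 2R and 3R it starts at the first base and keeps such a stretch. The values of this segment are thus not strictly alike between arms. The highest value of any segment, 22.2 per Mb, was in segment 6 of 2R counted from the tip, which contains the dense window described above.

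**Figure D5:**
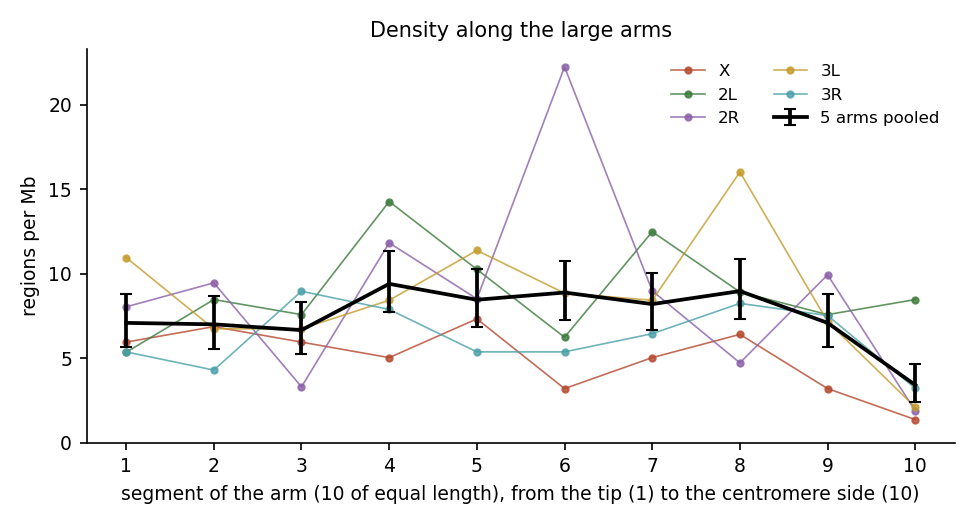
Jarid2 regions per Mb (y axis) in 10 equal segments of the 5 large arms from the tip (1) to the centromere side (10, x axis), for each arm (thin lines) and pooled (black, with exact Poisson 95% intervals). The pooled density falls to 3.42 per Mb in segment 10, where 2L alone stays at 8.47, and 2R reaches 22.2 in segment 6. On X, 2L and 3L segment 10 ends at the highest peak end, on 2R and 3R at the first base.

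In windows of 200 kb the regions were unevenly spread. Of the 595 windows on the main arms 175 (29.4%) held no region, the median was 1 and the highest count 30, and the variance was 2.48 times the mean. The densest 60 windows held 33.8% of regions. Windows picked by their own counts hold more than their share under any placement, and no random placement was made for comparison. The variance includes the window of 30 regions and was not taken without it. After the 2R window came 2L from 14.4 to 14.6 Mb with 14 regions, 3L from 17.8 to 18.0 Mb with 12 and 2R from 14.2 to 14.4 Mb with 11.

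The mitochondrial sequence, which is not chromatin and carries no histones, also held peaks. List A had 17 there and list B 9, and they covered 58.9% and 83.4% of the sequence up to the highest peak end. All 17 A peaks and 7 of the 9 B peaks were in regions of both lists, 7 in number. Folds of the mitochondrial peaks ran from 1.76 to 5.20 in A and from 3.16 to 5.67 in B, within the range on the chromosomes. The strongest of these regions, from 13992 to 14601, had folds of 5.20 and 5.33. They add 7 to the 900 regions and are part of every total that is not given for the main arms.

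Peaks found by 1 list only were the weaker part of each list in tags, but by fold this held in A only. The 966 such peaks of A had a median of 30 tags, or 4.81 times the library mean, against 8.34 times for A peaks in regions of both lists. The 129 of B had a median of 96 tags, or 4.85 times the mean, against 7.95 times. They were narrower too, with medians of 192 bp against 298 bp in A and 197 bp against 258 bp in B. Their local background was 1.60 times the genome-wide level in A and 1.41 in B, against 2.31 and 2.42 in regions of both lists. Tags are not corrected for this background, while the fold is taken over it. The median fold of peaks of 1 list only was 2.821 in A, against 3.403 for A peaks in regions of both lists. In B it was 3.022 against 2.999. Of the A peaks without a counterpart 19.9% lay within 1 kb of a B peak, and of the B peaks 32.6% within 1 kb of an A peak, so some border a region. The strongest A peak by fold without a counterpart was on X from 10824813 to 10825167, with a fold of 5.49, and the strongest B peak was on 2L from 8984679 to 8984880, with a fold of 4.68.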

How the data were processed

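The authors deposited 1 narrowPeak list for each immunoprecipitated library, with replicates not pooled. Per the submitters' processing notes, Trimmomatic 0.36, Bowtie 1.2.2, deepTools 3.0.2, MACS2 2.1.1 and build dm3 were used. Options, treatment of duplicates and the control of each list are not given in the sources used here. Per the labels' protocols, embryos were homogenized in buffer with 3% formaldehyde and fixed for 30 min, and adaptor-ligated DNA of 250 to 500 bp was amplified with 10 to 12 cycles. The deposited fold is a linear ratio. The deposited −log10 p and −log10 q are those of the peak, and the deposited score equalled 10 times −log10 q, rounded down, in all 2971 Jarid2 peaks. The smallest −log10 q was 1.31 in A and 1.35 in B, just above the 1.30 of a q of 0.05.

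Overlapping peaks of A and B were merged, and the strongest peak of each list gave a region's fold and summit in that list. Sequence lengths were the highest peak ends over the 4 lists, 127 Mb in all. Summit tags were recovered by assuming that fold is (tags + 1) / (background + 1) and that p is the Poisson probability of exceeding the tags. In A only whole counts were tried, and in every peak the best one matched −log10 p within a relative error of 1.1e-05. No total of reads is in the files, so absolute depth is unknown and only ratios are given. Merging and recovery were run on simulated lists as a check of the code. The planted sites were single peaks far apart, and their tags followed the same assumed arithmetic. This check therefore says nothing on compound or nearly touching regions, nor on whether that arithmetic was the one used. With 2 libraries no test of binding was made, and intervals are Wilson (shares) or exact Poisson (counts). Members and rules were chosen with earlier results of these data known. The named regions were the top 10 by mean rank of fold, the strongest on each sequence, the 3 widest, the 3 with the largest summit distance and the 3 runs with most regions; other runs, dense windows, unmatched peaks, the recovery of tags and background, the groups by background and by fold, the segments of arms and the background comparison with Pcl were added after values were seen. Software was pandas 2.3.3, scipy 1.17.1 and numpy 2.4.6 under Python 3.11.15, with matplotlib 3.10.9 for plots.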

Additional observations from a re-analysis of the deposited data

How the results depend on the processing

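Of 99 alternatives over 12 results, 73 stayed within the limits set for them (1.5-fold for a count of regions, otherwise 1 SD between the lists, a 95% interval or 0.1 in a rank correlation) and 26 did not. Some of these could not move, such as density on the main arms when only the main arms were kept. The SD limits come from the same 2 lists that serve as the single-list alternatives. Without those single-list alternatives 66 of 85 stayed and 19 did not. Where a setting's own construction does not give the cause, the cause was not tested. A stricter limit on q, 1e-05, left shorter lists and gave 475 regions, a median width of 353 bp, median folds of 3.85 and 3.52, 96.4% of summits within 100 bp, a median gap of 150 kb and 9.05% with a neighbour within 5 kb. Density on the main arms was then 3.95 per Mb against 7.52, a move within 1 SD only because the lists themselves differ widely. Lists of equal length (A cut by p) gave a median width of 339.5 bp and 93.8% of summits within 100 bp. Summits within 500 bp as the rule gave a width of 336.5 bp. Merging across gaps of up to 1 kb, which joins close regions, gave 345 bp, 88.5% of summits within 100 bp and 7.61% with a neighbour. The stretch common to both lists had a median width of 230 bp, and neighbours within 20 kb were found for 36.6%. The densest 119 windows of 100 kb held 40.4% of regions and the densest 24 windows of 500 kb held 27.1%, while the densest 60 windows of 200 kb held 34.8% of the peaks of list B. Summit tags in place of fold gave a rank correlation of 0.917; this and leaving out the dense 2R window were chosen after seeing the data. Using 1 list alone gave 1055 to 1916 peaks in place of regions, median widths of 238 to 250 bp, a median fold of 3.04 in A, gaps of 28.9 to 64.7 kb, 29.4% to 45.3% with a neighbour, and 8.81 to 15.8 peaks per Mb. The share on X was 11.3% to 13.1% in all alternatives. No paired analysis was possible because no groups were compared by replicate number. Genes, promoters and sequences were not analysed here, as no annotation or genome of build dm3 was used. Depth limits both lists, since a site below the threshold of a list may still be bound.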
